A study of Homo sapiens with 4 samples.

Results

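The genes described here act at the cell surface step of Wnt signalling and in its feedback. They are the secreted agonist RSPO3, its receptors LGR4 and LGR5, the membrane ligases ZNRF3 and RNF43, the secreted proteins DKK1 and DKK3, the receptor FZD1, the ligand WNT5A and the feedback scaffold AXIN2. These 10 genes of the 19775 with a probe set of their own were chosen by their place in the pathway and by their measured signals on the same 4 arrays. Their differences between subpopulations are therefore given as a description, with no test. They were represented by 24 of the 54675 probe sets. Of these, 16 lay above the floor of at least 1 array, 10 lay above it on all arrays and 8 on none. The floor is the median signal of an array's probe sets other than controls, between 53.7 and 60.3.

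RNA came from PC14, an established human non-small-cell lung cancer line, sorted into 4 subpopulations with 1 array each. The labels name them PC14 E+CD133+, PC14 E-CD133+, PC14 E+CD133- and PC14 E-CD133-, where E stands for E-cadherin, the adhesion protein of epithelial cells. Cells were first split by E-cadherin level. Each fraction was then sorted on GFP from a lentiviral vector under the CD133 P1 promoter, so CD133-high here means reporter-high in all groups. The labels call E+ cells epithelial, E- cells mesenchymal and CD133+ cells stem-like, and name no treatment besides the sort, growth being in 5% CO2 at 37C. With 1 array for each subpopulation of 1 line there is no spread between replicates to set a difference against.

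Wnt ligands bind Frizzled receptors together with the coreceptors LRP5 and LRP6, which stabilises beta-catenin and switches on genes through TCF and LEF factors. ZNRF3 and RNF43 remove Frizzled receptors from the membrane. R-spondins bridge these ligases to LGR4, LGR5 or LGR6, the ligases are cleared, and more Frizzled stays at the surface. AXIN2, LGR5, RNF43 and ZNRF3 are themselves induced by beta-catenin in many tissues, and DKK1 blocks LRP5 and LRP6 from outside the cell.

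The promoters of the 4 genes that were at least 2-fold different by E-cadherin in both CD133 states are shown because the genes lie on both sides of that comparison. RSPO3, DKK1 and FZD1 had higher signals in E-cadherin-low cells and LGR4 lower ones. Each sequence is the 250 bases before the RefSeq start of the gene, 5′ to 3′ on the gene's strand, in build GRCh38.p14. RSPO3 is at chr6:127118421-127118670 on the plus strand, LGR4 at chr11:27472791-27473040 on the minus strand, DKK1 at chr10:52314031-52314280 on the plus strand and FZD1 at chr7:91264183-91264432 on the plus strand. Capitals mark a match to 1 of 3 motifs searched on both strands, which were the TCF and LEF cores CTTTGAT and CTTTGAA and the E-box CACCTG bound by ZEB and SNAIL factors.
RSPO3: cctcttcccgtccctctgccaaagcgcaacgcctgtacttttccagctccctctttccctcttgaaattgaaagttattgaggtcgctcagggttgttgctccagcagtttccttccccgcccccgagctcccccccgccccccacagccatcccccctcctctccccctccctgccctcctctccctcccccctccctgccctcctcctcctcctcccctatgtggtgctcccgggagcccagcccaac
LGR4: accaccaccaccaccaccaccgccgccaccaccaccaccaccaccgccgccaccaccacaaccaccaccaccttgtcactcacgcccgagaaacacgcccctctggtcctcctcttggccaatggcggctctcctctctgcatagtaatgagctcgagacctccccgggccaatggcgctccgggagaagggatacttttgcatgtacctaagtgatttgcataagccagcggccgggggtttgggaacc
DKK1: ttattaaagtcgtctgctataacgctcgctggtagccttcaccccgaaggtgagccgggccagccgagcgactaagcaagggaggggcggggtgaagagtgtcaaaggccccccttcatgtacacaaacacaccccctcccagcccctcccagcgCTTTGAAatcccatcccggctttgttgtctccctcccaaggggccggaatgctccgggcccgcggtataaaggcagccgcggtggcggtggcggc
FZD1: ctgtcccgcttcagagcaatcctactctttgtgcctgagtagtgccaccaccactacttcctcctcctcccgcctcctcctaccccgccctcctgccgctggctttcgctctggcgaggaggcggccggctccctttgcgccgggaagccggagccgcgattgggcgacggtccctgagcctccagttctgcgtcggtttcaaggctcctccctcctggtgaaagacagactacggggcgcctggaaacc

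Among these 4 windows the motif CTTTGAA was matched once, in DKK1, 95 to 89 bases before the start. It occurs in 3.80% of 34788 promoter windows of the same length. The motif CTTTGAT occurs in 2.27% of them and CACCTG in 17.5%. Promoters were matched for 6 of the 10 genes, and of the rest CACCTG was matched in 1 of the 2 WNT5A windows, 204 to 199 bases before the start. The RNF43 windows held no match. A match describes letters only and was not set against binding.

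The sort on E-cadherin could be checked and that on CD133 could not. CDH1, which encodes E-cadherin, had log2 ratios of E-cadherin-low over high of -4.00 with CD133 high and -2.75 with CD133 low. PROM1, which encodes CD133, lay below the floor on all arrays. Of the epithelial markers, CDH1 among them, 5 of 8 were above the floor on all arrays, while KRT19, CLDN4 and ESRP1 were at the floor throughout. The summed signals, which include CDH1, were 29588 and 31231 where E-cadherin was high and 15732 and 15226 where it was low. With CD133 high and low, the log2 ratios of E-cadherin-low over high were -0.91 and -1.51 for EPCAM. They were -0.30 and -1.88 for KRT8 and -0.44 and -0.55 for KRT18. KRT7 was mixed, with 0.85 and -1.26, at signals of 64.3 to 154. The 4 named lung lineage markers summed to 352 to 562. Fibroblast markers were above the floor for 5 of 6 genes, with PDGFRB at the floor and sums of 17765 to 32191, mostly from COL3A1. Among them LUM was higher with CD133 by 2.75-fold and 10.6-fold and DCN by 2.24-fold and at least 6.28-fold, in the comparison in which LGR4 and DKK3 were higher. By E-cadherin the list was mixed. COL1A2 was 6.68-fold higher in E-cadherin-low than E-cadherin-high cells with CD133 high, from 65.1 near the floor, and below the floor with CD133 low. LUM and DCN had log2 ratios of 1.15 and 1.07 with CD133 high, but -0.80 and a bound of -0.42 with CD133 low. COL3A1 was lower in both pairs (-0.56 and -0.51), and COL1A1 had -0.11 and -0.02. The sums fell from 32191 to 23890 with CD133 high and from 24735 to 17765 with CD133 low. Of 4 named leukocyte markers CD14 and LYZ were at the floor, and the sums were 1310 and 1190 on the CD133-high and 431 and 537 on the CD133-low arrays, mostly from PTPRC. Endothelial and neural markers were above the floor for 1 of 4 and 2 of 3 genes, with sums of 148 to 218 and 144 to 225. The part of these markers in the results below was not tested. Since each array read pooled cells, fewer cells of a type and less RNA per cell cannot be told apart.

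RSPO3, the R-spondin gene of the set, was above the floor only in E-cadherin-low cells. Its single probe set (228186_s_at) read 292 in E-cadherin-low CD133-high and 440.2 in E-cadherin-low CD133-low cells. In E-cadherin-high cells it read 12.8 with CD133 high and 54.7 with CD133 low, both below the floor. The second lay just under its floor of 57.4. The E-cadherin-low arrays were thus above both others, by at least 5.43-fold among CD133-high and at least 7.67-fold among CD133-low cells. Within E-cadherin-low cells the CD133-high array was the lower of the pair, by 1.51-fold, and E-cadherin-high cells gave no ratio with this floor. With the floor at the 25th percentile no RSPO3 value was raised to it. The E-cadherin log2 ratios were then 4.51 with CD133 high and 3.01 with CD133 low. The CD133 ratio in E-cadherin-high cells was -2.10. With the floor at the 65th percentile, the mean E-cadherin ratio of RSPO3 fell to a bound of 1.25 on the log2 scale and no longer passed 2-fold in both pairs. This probe set ID is also marked as shared.

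LGR4, a receptor for R-spondins, had the widest range among the 9 of the 10 genes that were above the floor, and ran against RSPO3. Its probe set 218326_s_at read 3813 in E-cadherin-high CD133-high, 1049 in E-cadherin-high CD133-low, 774 in E-cadherin-low CD133-high and 194 in E-cadherin-low CD133-low cells. The subpopulation with both markers high was thus highest and the one with both low was lowest. The middle arrays differed by 1.35-fold and the outer steps were 3.64-fold and 3.99-fold. E-cadherin-low cells were lower by 4.93-fold and 5.40-fold in the CD133-high and CD133-low pairs. CD133-high cells were higher by 3.64-fold among E-cadherin-high and 3.99-fold among E-cadherin-low cells, so the log2 ratio of each marker moved by 0.13 between the states of the other. The other LGR4 probe sets, 222596_s_at and 230674_at, read 3.19 to 26.6, under every floor. The LGR4 values thus rest on 1 probe set, whose ID marks it as matching several transcripts, and averaging over probe sets or leaving out such IDs left both LGR4 arrays of each pair at the floor (ratio 0.00).

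LGR5, the receptor known as a marker of intestinal stem cells, was close to or below the floor. Its probe set 213880_at read 57.2 in E-cadherin-high CD133-high cells, just above that array's floor of 53.7, and 0.724 to 9.24 elsewhere. Its other probe set, 210393_at, read 43.5 on the same array and 2.98 to 6.27 elsewhere. Both probe sets were thus brightest in the subpopulation in which LGR4 was brightest, at a level that gives no usable ratio. By its probe set with the higher mean, 210393_at, LGR5 did not pass the filter on low signal, and 9 of the 10 genes did, 8 of them on all arrays.

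The ligase genes ZNRF3 and RNF43 stood in the same order over the arrays as LGR4, with spans of 0.38 and 1.55 log2 units. ZNRF3 (226360_at) had 817 and 772 in E-cadherin-high cells with CD133 high and low, against 666 and 629 where E-cadherin was low. Its E-cadherin ratios were -0.30 and -0.29 on the log2 scale, near the median absolute ratio of all genes above the floor, 0.25 and 0.26. RNF43 (218704_at) had 432 and 357 in the former cells and 245 and 148 in the latter, again with CD133 high first. Both E-cadherin-low values were below both others. The RNF43 ratios were -0.82 and -1.27, so that the 2-fold line was passed only among CD133-low cells, where 2.87% of the 14083 genes above the floor were lower by as much. The CD133 ratios of RNF43 were 0.28 and 0.73 and those of ZNRF3 0.08 and 0.08. The order shared by LGR4, ZNRF3 and RNF43 was that of 3.55% of the 10891 genes above the floor on all arrays.

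**Figure D1:**
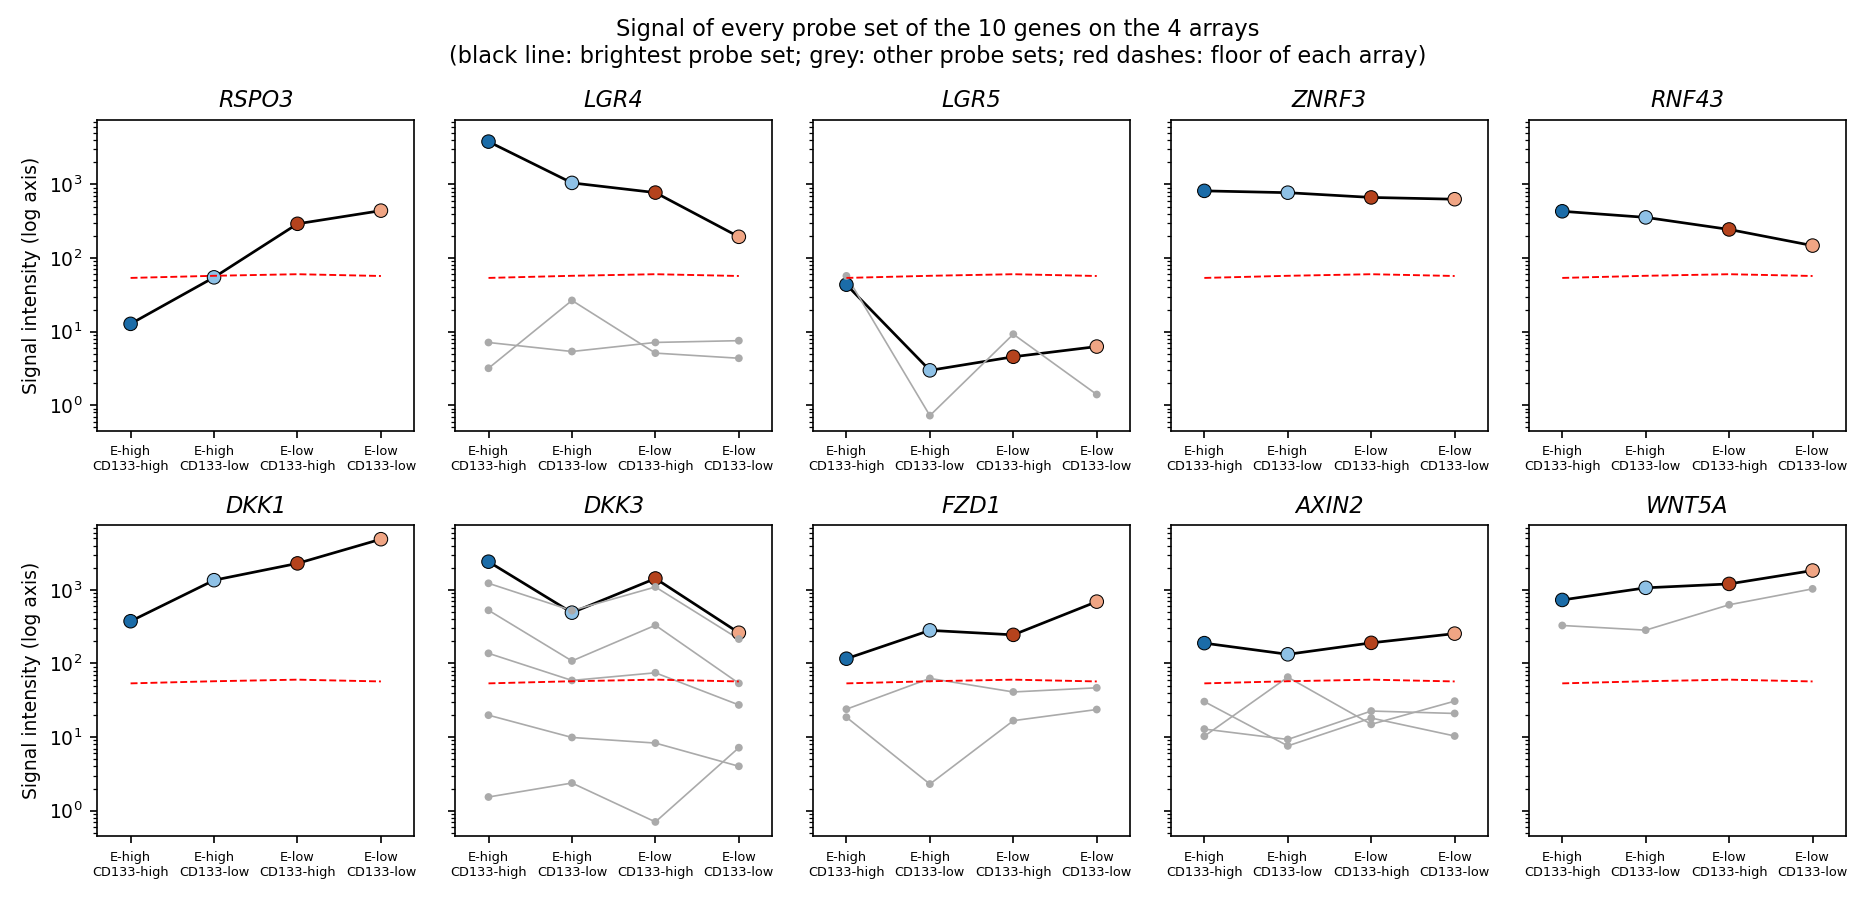
Signal intensity (log axis) of all 24 probe sets of the 10 genes on the 4 arrays, 1 point per array, with the floor of each array as red dashes. The probe sets used for LGR4 and RNF43 step down from left to right and those of DKK1 and WNT5A step up, while RSPO3 is above the floor only on the E-cadherin-low arrays and LGR5 reaches it on 1 array.

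DKK1, a secreted antagonist of LRP5 and LRP6, stood in the reverse order of LGR4. Its probe set (204602_at) read 4879 in E-cadherin-low CD133-low, 2289 in E-cadherin-low CD133-high, 1353 in E-cadherin-high CD133-low and 375 in E-cadherin-high CD133-high cells. Neighbours in that order differed by 2.13-fold, 1.69-fold and 3.61-fold. E-cadherin-low cells were higher by 6.10-fold among CD133-high and 3.61-fold among CD133-low cells, and their values did not overlap with those of E-cadherin-high cells. CD133-high cells were lower by 3.61-fold and 2.13-fold, with overlapping values. The E-cadherin ratio was larger by 0.76 on the log2 scale where CD133 was high, a difference that was not tested.

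DKK3, a divergent relative of the Dickkopf proteins, differed more by CD133 than by E-cadherin. The probe set 214247_s_at read 2413 and 1428 in the CD133-high cells with E-cadherin high and low, and 490.1 and 261 in the CD133-low cells. CD133-high cells were higher by 4.92-fold and 5.46-fold, and the groups did not overlap. The E-cadherin ratios, -0.76 and -0.91, stayed within 2-fold but passed 1.5-fold. By another probe set, 230508_at, they were -0.17 with CD133 high and -1.28 with CD133 low, the latter past 2-fold. DKK3 had the most probe sets, 6, of which 4 were above the floor on some array. All 4 were higher with CD133, among them 230508_at with log2 ratios of 1.23 and 2.35, and 202196_s_at with 2.29 and a bound of 2.54. The last of them, 221127_s_at, had 1.22 and a bound of 0.39. The probe sets 207875_at and 221126_at did not reach the floor, and with all 6 averaged the mean CD133 ratio was 0.84.

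By CD133, DKK1 and DKK3 thus ran in opposite directions. DKK2 and DKK4 were at the floor throughout, and the Dickkopf-like gene DKKL1, named after its values were seen, had CD133 ratios of 0.32 and a bound of 1.94. These are RNA signals of the sorted cells, and neither secreted protein was measured.

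FZD1, a Frizzled receptor, had the same directions as DKK1 in both comparisons. Its probe set 204451_at read 692 in E-cadherin-low CD133-low, 282 in E-cadherin-high CD133-low, 245 in E-cadherin-low CD133-high and 116 in E-cadherin-high CD133-high cells. The middle arrays differed by 1.15-fold. Both CD133-high values lay below both CD133-low values, by 2.43-fold among E-cadherin-high and 2.83-fold among E-cadherin-low cells. E-cadherin-low cells were higher by 2.11-fold and 2.46-fold, with overlapping values, and the first of these fell short of 2-fold when the arrays were quantile normalized (log2 ratio 0.98) or set to equal medians (0.91). The other FZD1 probe sets, 204452_s_at and 236035_at, read 2.30 to 62.7, and only 1 of those 8 values exceeded a floor. With the floor at the 65th percentile or with probe sets averaged, FZD1 was no longer counted in either comparison, its mean E-cadherin ratios being 0.99 and 0.34 and its mean CD133 ratios -1.19 and -0.30.

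WNT5A, a ligand best known for signalling apart from beta-catenin, was read above the floor by both of its probe sets. By 205990_s_at it had 1830.5 in E-cadherin-low CD133-low, 1204 in E-cadherin-low CD133-high, 1066 in E-cadherin-high CD133-low and 729 in E-cadherin-high CD133-high cells, the order of DKK1. That order was held by 2.75% of the genes above the floor on all arrays. Its E-cadherin ratios, 0.72 and 0.78, were below 2-fold. The other, 213425_at, read 1032 and 627 in the E-cadherin-low cells with CD133 low and high, and 284 and 328 in the E-cadherin-high cells. Both probe sets thus placed both E-cadherin-low arrays above both others, with ratios of 0.93 and 1.86 by the second. By CD133 they differed, with -0.55 and -0.60 by the first and 0.21 and -0.72 by the second.

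AXIN2, the scaffold of the beta-catenin destruction complex and a common readout of the pathway, spanned 0.93 log2 units over the arrays, against a median of 0.64 over all genes above the floor. Its probe set 222696_at read 189 and 133 in E-cadherin-high cells with CD133 high and low, and 191 and 254 in E-cadherin-low cells. From the highest array to the lowest, neighbours differed by 1.01-fold to 1.42-fold. The E-cadherin ratios were 0.01 and 0.93, and the CD133 ratios 0.50 and -0.42. The other 3 AXIN2 probe sets, 222695_s_at, 224176_s_at and 224498_x_at, read 7.60 to 65.2, and 1 of those 12 values exceeded a floor. The order of the arrays in AXIN2 was that of 3.21% of the genes above the floor on all arrays, that in DKK3 of 5.69% and that in FZD1 of 4.81%.

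Set side by side, the E-cadherin comparison had RSPO3, DKK1 and FZD1 at least 2-fold higher in E-cadherin-low cells in both pairs, LGR4 lower and 5 of the 9 genes above the floor in neither. Over the 14083 genes above the floor, 0.476% were higher and 0.540% lower by this rule. Both E-cadherin-low arrays lay above both others for 4 genes, RSPO3, DKK1, AXIN2 and WNT5A, against 14.1% of all genes. They lay below for 3, LGR4, ZNRF3 and RNF43, against 12.2%. AXIN2 is among the former by 191 against 189 only. Its log2 ratio with CD133 high was -0.06 under quantile normalization and -0.15 with equal array medians, where its arrays overlapped. In the CD133 comparison LGR4 and DKK3 were at least 2-fold higher in CD133-high cells in both pairs, DKK1 and FZD1 lower and 5 in neither, against 2.45% and 1.12% of all genes. The arrays did not overlap for DKK3, higher, against 24.6%, and for FZD1, lower, against 22.6%. Nothing is read from these counts, since the genes were chosen with the contrasts known, and both comparisons use the same 4 arrays. Of the 9 genes, 5 spanned at least 2 log2 units over the arrays, as did 4.18% of all genes, with 4.29 for LGR4, 3.70 for DKK1, 3.21 for DKK3, 3.04 for RSPO3 against its floor and 2.57 for FZD1. The next, RNF43, spanned 1.55. Nothing is read from the count of spans either, since the genes were chosen by their signals on these arrays.

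**Figure D2:**
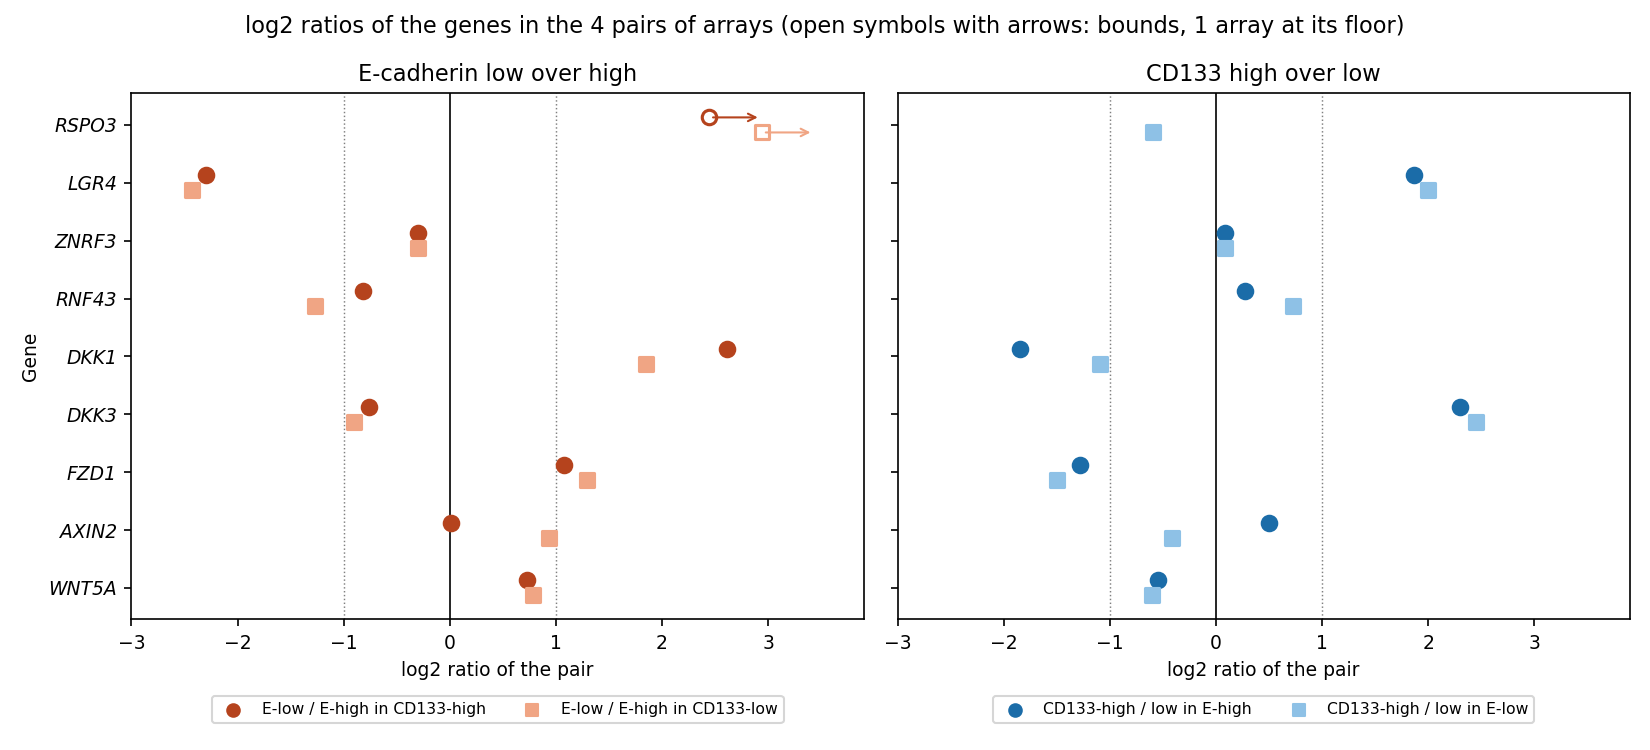
The log2 ratios of the 9 genes above the floor in the 4 pairs of arrays, with E-cadherin-low over high on the left and CD133-high over low on the right, dotted lines at 2-fold and arrows on bounds. LGR4 is left of the line by E-cadherin (-2.30 and -2.43) and right of it by CD133 (1.86 and 1.99), and DKK1 and FZD1 are the other way round.

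The other genes of the pathway were taken from lists by function. Of 106 other genes in 7 lists, 99 had a probe set of their own and 74 were above the floor. By E-cadherin 1 of them was at least 2-fold higher in both pairs, 0 were lower and 73 were neither, beside 0.476% and 0.540% of all genes, and the median log2 ratios were 0.00 and -0.05, against 0.00 and 0.00 over all genes. By CD133 3 were higher, 1 was lower and 70 were neither, beside 2.45% and 1.12% of all genes, with medians of 0.12 and 0.17 against 0.00 and 0.00. TLE4, a corepressor of TCF factors, was counted in both comparisons, with 1.14 and 2.02 by E-cadherin and 2.26 and 1.38 by CD133. SOX9, a transcription factor among the beta-catenin targets, was higher with CD133 by 1.25 and 1.84, and VANGL2, a planar polarity protein, by 1.72 and 1.05. PYGO1, a coactivator of beta-catenin, was lower with CD133, by bounds of -1.98 and -1.29. These counts changed with the processing, as TLE4 lost its E-cadherin count and VANGL2 its CD133 count with equal array medians, VANGL2 also with quantile normalization, and SOX9 without shared probe sets. With the floor at the 65th percentile TLE4 alone was higher with CD133 and PYGO1 was not counted, and with probe sets averaged VANGL2 alone was higher and none was lower.

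**Figure D3:**
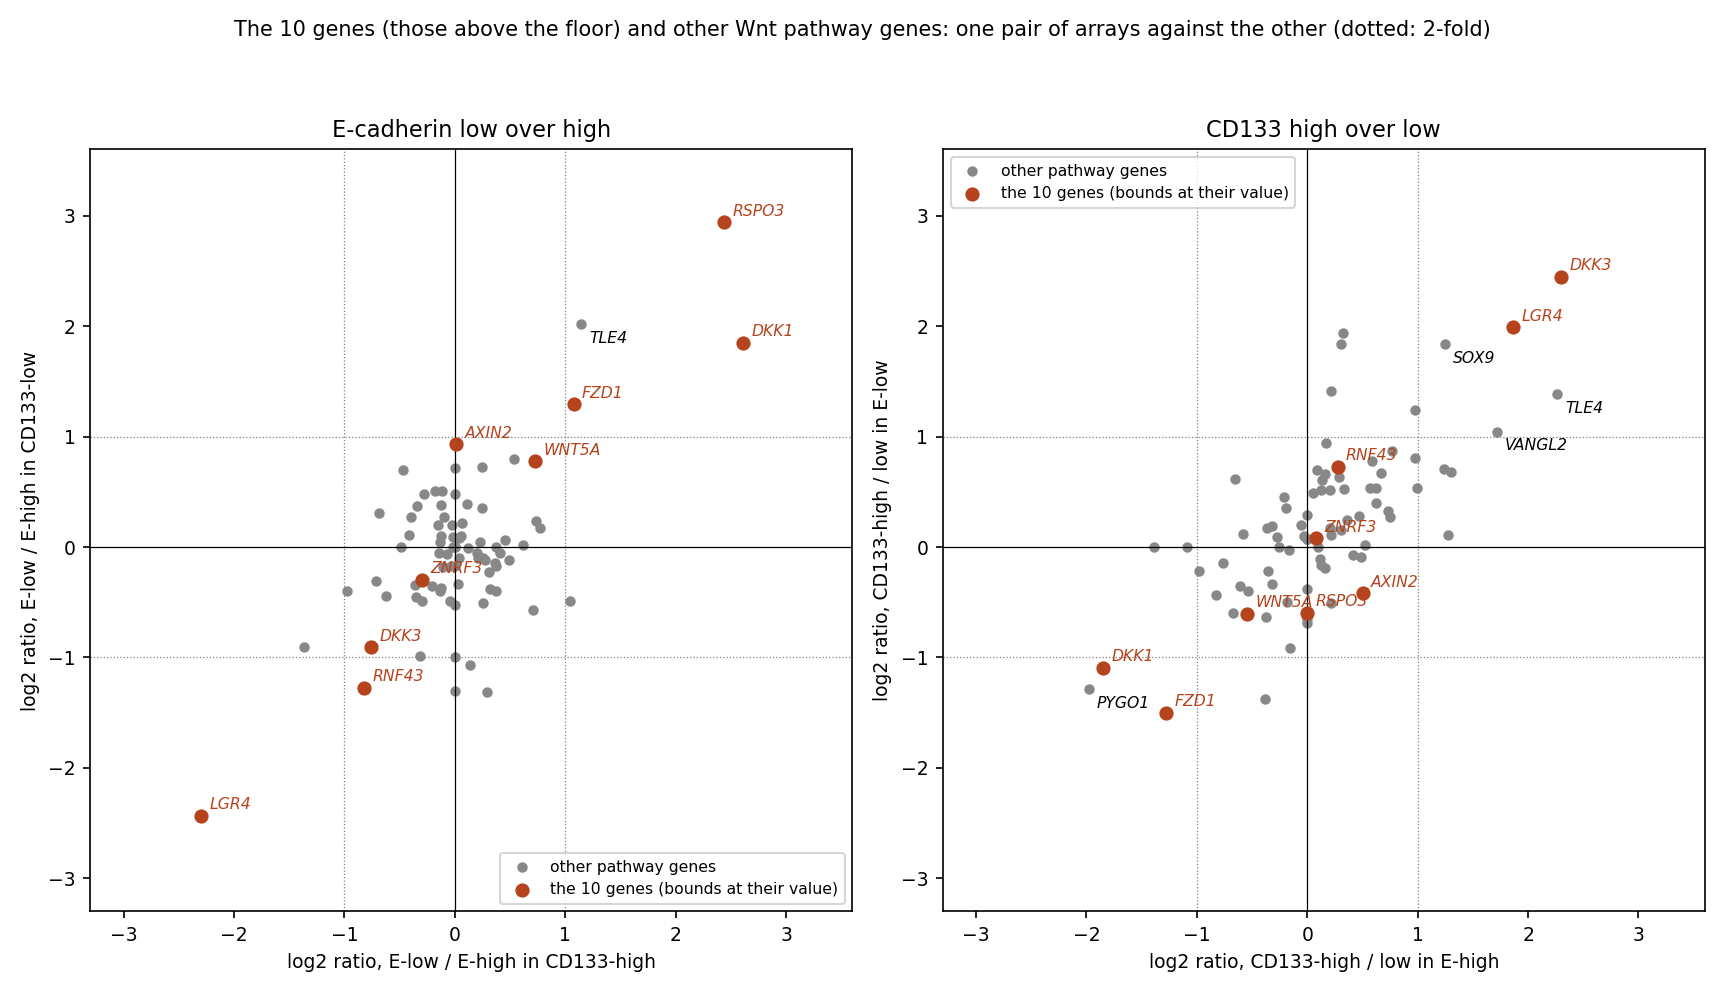
Each point is a gene, with the log2 ratio of 1 pair of arrays on the x axis and of the other pair on the y axis, for E-cadherin-low over high (left) and CD133-high over low (right), dotted lines at 2-fold. The 74 other pathway genes (grey) lie mostly within the dotted lines. LGR4, DKK1, DKK3, RSPO3 and FZD1 (red) lie outside them in a corner of at least 1 panel. The red genes were chosen with their signals on these arrays known, so nothing is read from this contrast.

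Relatives of the 10 genes were not counted in either comparison, though some passed 2-fold in single pairs. Among R-spondins, RSPO4 read 108 to 223 with E-cadherin ratios of -0.72 and -0.31, RSPO1 read 77.7 and 72.6 in E-cadherin-high cells and was below the floor otherwise, and RSPO2 was above the floor only in E-cadherin-high CD133-low cells, at 141, which gave bounds of -1.30 by E-cadherin and -1.39 by CD133. LGR6 was at the floor throughout. Of 17 other inhibitor genes, 10 were above the floor and 0 were counted in either comparison. KREMEN1, a coreceptor for DKK1, had CD133 ratios of 0.97 and 1.24, and with equal array medians it was counted as higher with CD133. KREMEN2 had CD133 ratios of 0.21 and 1.41 and E-cadherin ratios of 0.13 and -1.07. Both KREMEN genes are named here after their values were seen.

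Of the other Frizzled genes, FZD2 to FZD7, FZD9 and FZD10 had a probe set of their own and were counted in neither comparison. FZD4 read 1077 and 539 with E-cadherin high and 418 and 288 with it low, in CD133-high and CD133-low cells, ratios of -1.37 and -0.90 by E-cadherin. FZD2 was higher with CD133 by 0.76 and 0.87, FZD7 had E-cadherin ratios of 0.77 and 0.17, and FZD3 and FZD5 stayed within 0.36 in size in each pair. FZD9 was above the floor on 2 arrays, and FZD6 and FZD10 on none. Of the 12 Frizzled, coreceptor and related receptor genes above the floor, 0 were counted.

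Of the core relay, CTNNB1, LRP6, TCF7L2 and APC RNA was well above the floor on all arrays. CTNNB1, which encodes beta-catenin, read 8554 to 13093, with CD133 ratios of 0.57 and 0.53 and E-cadherin ratios of 0.04 and 0.08. The coreceptor LRP6 read 2176 to 3118 and LRP5 60.5 to 102. On the CD133-low arrays LRP5 was barely above the floor, at 60.7 and 60.5 against 57.4 and 57.0. TCF7L2, a factor that binds beta-catenin, read 4002 to 5532, and APC, a scaffold of its destruction complex, 1053 to 1510. LEF1 was at the floor throughout. Of the 13 beta-catenin target genes besides the 10 that had a probe set, 6 were above the floor, and SOX9 alone was counted. The 8 other Wnt ligand and secretion genes above the floor gave 0 counts, with median CD133 ratios of 0.15 and 0.63.

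Genes with the most similar pattern were sought for the 5 that spanned at least 2 log2 units, by Euclidean distance between log2 profiles over the 4 arrays centred on their means. For LGR4 the nearest were LMO7 at a distance of 0.37, the adhesion receptor ADGRL2 at 0.45 and the mucin MUC1 at 0.77. LMO7 read 2109 and 546 where E-cadherin was high and 450.0 and 80.4 where it was low, with CD133 high and low. For RSPO3 they were DOCK10 (0.80), the cadherin CDH10 (0.85) and the ephrin EFNB2 (0.98), and for DKK1 the kinase PLK2 (0.85), LASP1NB (0.88) and the growth factor NRG1 (0.89). DKK3 had closer neighbours in ATXN1 (0.28), the chloride channel protein CLIC3 (0.32) and PRTFDC1 (0.38), as did FZD1 in ANK2 (0.21), LASP1NB (0.33) and RALGPS2 (0.35). ANK2, an ankyrin, read 476 and 1378 in E-cadherin-high and 1166 and 2995 in E-cadherin-low cells with CD133 high and low. Among the 9 genes themselves the closest were AXIN2 and WNT5A (0.80), then ZNRF3 and RNF43 (0.89), all of which spanned less than 2 log2 units. DKK1 lay 1.16 from FZD1 and 1.37 from RSPO3, and 5.73 from LGR4, the largest distance between any pair of the 9. Signals below the floor were set to it before these distances were taken. RSPO3 and DOCK10 lay at the floor on both E-cadherin-high arrays, and NRG1 on the E-cadherin-high CD133-high array. The distances of these genes therefore depend on the floor chosen. All of the distances rest on 4 arrays and describe them alone.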

How the data were processed

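The deposited values are intensities per probe set on a linear scale, computed with MAS5 per the submitters' processing notes. The sources used here do not give its version or detection calls. The mean after trimming 2% at each end was 500.1 on every array, so the authors' values had been scaled within arrays. Probe sets were named from the platform annotation, and those with several symbols were left out. For each gene the probe set of highest mean log2 signal was used. Signals below an array's 50th percentile of probe sets other than controls were set to it. The log2 ratio of each pair of arrays that differ in 1 marker was 0 where both lay at the floor and a bound where 1 did. A gene was counted at 2-fold or more in the same direction in both pairs of a comparison, read beside the same share over all genes above the floor on at least 1 array. With 1 array per subpopulation no test was made, and precision is limited by the number of arrays. GAPDH 3′ over 5′ ratios were 0.898 to 1.02 and those of actin 1.53 to 1.78, highest in E-cadherin-low CD133-high cells. The counting was tried on simulated data, with effects planted on every probe set of genes well above the floor. It does not cover genes at the floor on some arrays, such as RSPO3, or with silent probe sets, such as LGR4. The genes, the lists and the rule for named genes (the 10 genes, their relatives, counted pathway genes and nearest profiles) were chosen with earlier results of these data known. Alternatives concerned normalization, floor, fold and probe sets. Python 3.11.15, numpy 2.4.6, pandas 2.3.3 and matplotlib 3.10.9 were used. Promoters are from RefSeq, GRCh38.p14.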

Additional observations from a re-analysis of the deposited data

Results flagged for a closer look

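The CD133 ratio of AXIN2 had opposite signs in the E-cadherin states, with 0.50 among E-cadherin-high and -0.42 among E-cadherin-low cells on the log2 scale. Both are below 2-fold, each rests on 1 pair of arrays, and the difference was not tested. Its E-cadherin ratios, from the same arrays, were 0.93 in CD133-low and 0.01 in CD133-high cells.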

How the results depend on the processing

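The counts of the 10 genes (3 higher and 1 lower by E-cadherin, 2 higher and 2 lower by CD133) kept within 1.5 times under quantile normalization, equal array medians, no floor (signals under 1 set to 1) and a floor at the 25th percentile. The shares of all genes, higher and lower, were 0.476% and 0.540% by E-cadherin and 2.45% and 1.12% by CD133. Quantile normalization gave 0.426%, 0.568%, 2.215% and 1.214%, and equal medians 0.362%, 0.632%, 2.627% and 1.086%. With no floor the shares rose to 3.404%, 2.529%, 4.562% and 3.556%. At the 25th percentile they were 1.804%, 1.298%, 3.371% and 1.949%. With no floor or the lower floor, the same counts thus stood beside larger shares. With the floor at the 65th percentile, 1 was higher by E-cadherin (DKK1) and 1 lower by CD133 (DKK1), beside 0.319% and 1.07% of all genes. That floor lies above RSPO3 on both E-cadherin-high arrays and above FZD1 on the E-cadherin-high CD133-high array. The ratios with those arrays became smaller. At 1.5-fold 3 were lower by E-cadherin (LGR4, RNF43 and DKK3), beside 1.83% of all genes. At 3-fold 0 were lower by CD133, beside 0.433%. With the mean over probe sets, 0 were lower by E-cadherin, 0 higher and 1 lower by CD133, beside 0.411%, 1.81% and 1.01% of all genes. Without probe sets marked as shared, 0 were lower by E-cadherin and 1 was higher by CD133 (DKK3), because LGR4 keeps only a probe set below the floor, and 2 were higher by E-cadherin (DKK1 and FZD1), because RSPO3 keeps none. The shares of all genes were 0.595% lower and 0.532% higher by E-cadherin, and 2.42% higher by CD133. The mean E-cadherin ratio of FZD1 was 1.19, and 1.14 under quantile normalization and 1.11 with equal medians, where 1 pair fell below 2-fold. Equal medians moved the median of all genes to -0.12 in the E-cadherin pair of CD133-high cells.

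For the other pathway genes (1 higher and 0 lower by E-cadherin, 3 and 1 by CD133), counts were 3 and 2 by E-cadherin and 5 and 5 by CD133 with no floor. The shares of all genes with no floor had risen too, to 3.404% and 2.529% by E-cadherin and 4.562% and 3.556% by CD133. With a floor at the 25th percentile 3 and 1 were counted by E-cadherin, and 3 lower by CD133. Beside them stood 1.804%, 1.298% and 1.949% of all genes. At the 65th percentile 1 was higher and 0 lower by CD133, beside 2.08% and 1.07% of all genes. At 1.5-fold 1 was lower by E-cadherin and 10 higher and 2 lower by CD133, beside 1.83%, 6.625% and 3.93% of all genes. At 3-fold 0 were counted in either comparison. The shares of all genes were then 0.128% and 0.0923% by E-cadherin, and 0.675% and 0.433% by CD133. The mean over probe sets gave 0 higher by E-cadherin and 1 higher and 0 lower by CD133, beside 0.387%, 1.81% and 1.01% of all genes. Equal medians gave 0 higher by E-cadherin, beside 0.362%. No paired analysis was possible because each subpopulation has 1 array and the labels give no replicate numbers to use as a block. The matched pairs of arrays are the values reported, and leaving out an array would leave 1 pair in each comparison. In no setting was a counted ratio of the 10 genes reversed. Signals near the floor limit LGR5, RSPO1 and RSPO2.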
